A study of Rattus norvegicus with 16 samples.

Results

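The genes described here are those of corticosteroid sensing and of the early response to it: the receptor genes Nr3c1 and Nr3c2, the converting enzymes Hsd11b1 and Hsd11b2, and the target genes Sgk1 and Tsc22d3. They were chosen by symbol, taking every probe set that the platform annotation assigns to 1 of the 6 names. The annotation lists 8 probe sets for 5 of the genes, out of 8799 probe sets and 4736 named genes on the array, and no probe set for Tsc22d3. The study hybridized 16 Affymetrix RGU34A arrays, a rat expression array with 1 colour, with total RNA of rat dentate gyrus, where cortical signals enter the hippocampus. The naive and 6 h groups hold 3 arrays each, and the 0 h, 2 h, 3 h, 12 h and 24 h groups hold 2 each. All labels, the naive ones included, name passive avoidance training, a task in which a rat withholds a step that was followed by an aversive event. Naive rats are treated as untrained below and the hour groups are called trained. No strain, age, sex or treatment is given, nor whether training is hour zero or whether replicates are separate animals. The spread behind the p-values may therefore be technical.

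Corticosterone, the main glucocorticoid of the rat, is released from the adrenal cortex under stress and in a daily rhythm. In hippocampal neurons it binds the mineralocorticoid receptor encoded by Nr3c2, which has the higher affinity and is largely occupied at rest, and the glucocorticoid receptor encoded by Nr3c1, which is occupied when hormone rises. Hsd11b1 regenerates active hormone from its inert keto form inside cells, and Hsd11b2 inactivates it. Sgk1 encodes a serum- and glucocorticoid-regulated kinase and is a textbook target of both receptors. Tsc22d3 encodes the glucocorticoid-induced leucine zipper protein.

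Sgk1 was the member whose arrays lay on 1 side of the naive arrays most often, so the DNA before its start sites is shown first. RefSeq on the GRCr8 build lists 3 start sites for Sgk1, all on the minus strand of chromosome 1. The 250 bases before the first and the third are printed 5′ to 3′ in the direction of transcription, with TATA boxes (TATAAA) and GC boxes (GGGCGG, or CCGCCC on the other strand) in capitals. The first window is chr1:24807232-24807481 and the third is chr1:24804832-24805081.
Sgk1 start 1: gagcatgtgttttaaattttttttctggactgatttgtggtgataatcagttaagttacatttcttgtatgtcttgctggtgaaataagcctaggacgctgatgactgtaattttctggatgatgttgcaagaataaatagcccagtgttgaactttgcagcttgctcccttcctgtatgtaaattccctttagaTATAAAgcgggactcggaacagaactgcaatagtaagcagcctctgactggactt
Sgk1 start 3: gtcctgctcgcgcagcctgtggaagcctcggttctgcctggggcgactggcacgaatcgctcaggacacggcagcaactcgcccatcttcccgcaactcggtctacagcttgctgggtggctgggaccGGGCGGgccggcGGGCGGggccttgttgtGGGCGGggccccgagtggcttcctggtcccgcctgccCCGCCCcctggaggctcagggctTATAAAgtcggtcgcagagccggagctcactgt
The windows differ in make-up, with 39.2% G and C before start 1 and 69.6% before start 3. The TATA box lies 55 to 50 bases before start 1 and 33 to 28 bases before start 3, and only the window of start 3 of these 2 holds GC boxes, 4 in number. The window of start 2, not printed, holds 2 GC boxes and no TATA box. None of the 3 windows holds the letters TGTTCT, the consensus half-site of the glucocorticoid receptor, on either strand, which says only that these letters are not in these windows. Over 33469 RefSeq promoter windows of this length, 17.5% hold TGTTCT, 12.9% hold TATAAA and 30.5% hold GGGCGG. The files do not tell which start site the Sgk1 probe set reports on.

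Levels are given as scaled intensity: the deposited intensity of an array multiplied so that all arrays share 1 trimmed mean. Values under 5.05 were set to that lowest level, and tests used log2 values in limma with all 7 groups. Levels of different probe sets cannot be set against each other, because each has its own hybridization efficiency. Of the 8 probe sets, 6 were tested, among 6220 in all. The trimmed mean before scaling ranged from 33.3 to 170 between arrays, and correlations between arrays from 0.908 to 0.973. Of the 7 dentate granule neuron markers, 3 had a probe set: Calb1 had a median scaled intensity of 364, Neurod1 of 126, and Tdo2 was at the lowest level on 14 of 16 arrays. Because these are bulk samples, fewer cells of a type and less RNA per cell cannot be told apart.

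No probe set of these genes passed the threshold (adjusted p under 0.05) after adjustment over all 6220 probe sets, in any of 9 limma comparisons with Benjamini-Hochberg adjustment: the 6 hours against naive, the trained groups as 1 mean against naive, an F test of all 7 groups and an F test of the 6 trained times. The background was as low: 0.0161% of all probe sets were called at 2 h and 0% in each other comparison. At an unadjusted p under 0.05, 1 of the 6 was past the line for trained against naive, where 5.35% of all probe sets were. The hours gave 0 of 6 at 0 h (5% of all), 3 of 6 at 2 h (7.67%), 2 of 6 at 3 h (4.31%), 1 of 6 at 6 h (9.41%), 1 of 6 at 12 h (10.1%) and 1 of 6 at 24 h (4.44%). The F test over the 7 groups gave 1 of 6 (10.3%) and that over the 6 trained times 0 of 6 (10.8%). Since every hour is set against the same 3 naive arrays, these counts are not independent of each other.

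**Figure D1:**
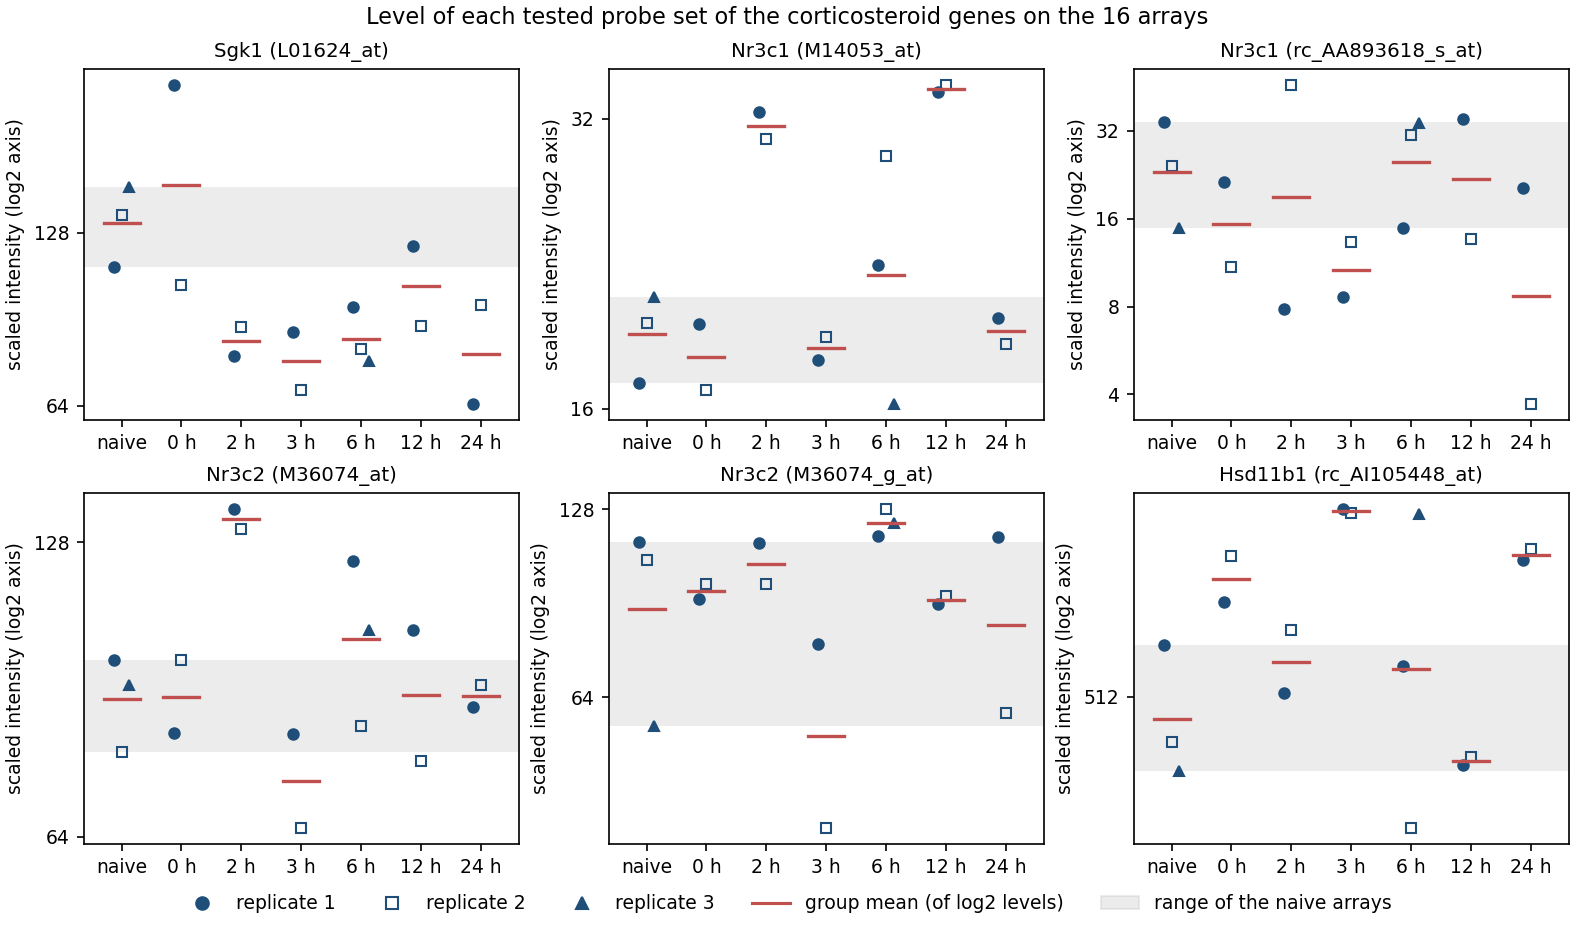
Scaled intensity (log2 axis, with its own range in each panel) of the 6 tested probe sets in the 7 groups; each symbol is 1 array, red lines are means of the log2 levels and grey bands span the 3 naive arrays. Sgk1 lies below the naive band on 11 of 13 trained arrays, and Nr3c1 (M14053_at) lies above it on both 2 h and both 12 h arrays.

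The glucocorticoid receptor gene Nr3c1 read close to the low-value filter (16.9) in most groups and was highest in the 2 h and 12 h groups. Probe set M14053_at read 17.03, 19.6 and 20.9 in the naive group. It read 19.6 and 16.7 at 0 h, 32.5 and 30.5 at 2 h, and 17.98 and 19.0 at 3 h. It read 22.5, 29.2 and 16.2 at 6 h, 34.1 and 34.7 at 12 h, and 19.9 and 18.7 at 24 h. All 4 arrays of the 2 h and 12 h groups thus lay above every naive array, while the 0 h, 3 h, 6 h and 24 h groups overlapped with naive. The 2 h mean was 1.65-fold above naive (log2 difference 0.72, SE 0.33, limma adjusted p = 0.634). The 12 h mean was 1.80-fold above naive (0.85, SE 0.33, limma adjusted p = 0.426). Neither passed the adjusted threshold. From the highest mean down, the order was 12 h, 2 h, 6 h, 24 h, naive, 3 h and 0 h. The 12 h and 2 h means differed by less than the spread within groups (SD 0.22 on the log2 scale), and so did the neighbours from 6 h down to 0 h. Over all trained groups the difference from naive was 0.28 (SE 0.23, 95% confidence interval -0.21 to 0.76).

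Other measures stood apart on the same arrays. The beta-actin 3′ over 5′ control ratio was 1.96 and 2.69 at 2 h and 2.40 and 2.80 at 12 h, against 1.49 to 1.70 in naive arrays, and with it as a covariate the Nr3c1 differences were 0.58 (SE 0.46) at 2 h and 0.66 (SE 0.54) at 12 h. The endothelium and mural cell score, the mean over 8 tested genes of 11 of the log2 level less the gene's mean, was -0.18 to 0.11 in naive arrays, 0.07 to 0.18 at 2 h and 0.13 to 0.24 at 12 h. The score was thus above the naive range on both 12 h arrays, while the summed scaled intensity was not higher. That sum was 511 to 756 in naive arrays, 470 to 661 at 2 h and 548 to 633 at 12 h, with 2 of 8 and 3 of 8 genes below the naive mean. Abcb1a, 1 of the 8 genes, was at the lowest level on all naive arrays. Its fitted differences of 1.71 at 2 h and 0.67 at 12 h (SE 0.54 each) depend on that level and enter the score. At 2 h the share of this gene in the mean over 8 genes exceeds the score's whole difference from naive (group means 0.12 and -0.02). At 12 h (group mean 0.18) that share is smaller than the score's difference. The blood cell score (6 of 10 genes tested) was -0.16 to 0.09 in naive arrays, 0.12 to 0.37 at 2 h and 0.04 to 0.23 at 12 h, with a summed intensity of 1231 to 1608, 1366 to 2504 and 1249 to 1578. The trimmed mean intensity before scaling was 72.6 and 56.6 at 2 h and 33.3 and 116 at 12 h, against 113 to 143 in naive arrays. The part of vascular and blood markers in the Nr3c1 values was not tested.

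The other Nr3c1 probe sets did not show this pattern. Probe set rc_AA893618_s_at read 34.5, 24.3 and 14.9 in naive arrays, 21.4 and 10.97 at 0 h, 7.8 and 45.9 at 2 h, and 8.6 and 13.3 at 3 h. It read 14.9, 31.1 and 34.0 at 6 h, 35.1 and 13.7 at 12 h, and 20.3 and 3.7 at 24 h. Its spread within groups (SD 0.97 on the log2 scale) was wider than that of M14053_at, it exceeded the low-value filter (16.9) on 8 of 16 arrays, and both 2 h arrays lay outside the naive range on opposite sides. The 3 h arrays were both below the naive arrays (difference -1.11, SE 0.73, limma adjusted p = 0.998). Pearson's r between these probe sets over the 16 arrays was 0.16, as a description. The third, rc_AI137538_at, was at the lowest level on 16 of 16 arrays and was not tested.

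The mineralocorticoid receptor gene Nr3c2 stood highest at 2 h on 1 of its 2 probe sets. Probe set M36074_at read 97.0, 78.2 and 91.4 in naive arrays. It read 81.7 and 96.9 at 0 h, 138.4 and 132.0 at 2 h, and 81.5 and 65.4 at 3 h. It read 122.4, 83.0 and 104.1 at 6 h, 104.3 and 76.6 at 12 h, and 87.0 and 91.4 at 24 h. Both 2 h arrays were above every naive array, and every other hour overlapped with naive. Before scaling, the 2 h arrays read 95.4 and 71.0 against 116.8, 83.6 and 123.7 in naive arrays, so the position at 2 h depends on the scaling. Pearson's r of this probe set with the log2 trimmed mean was -0.52 over the 16 arrays, as a description. The 2 h mean was 1.53-fold above naive (log2 difference 0.61, SE 0.24, limma adjusted p = 0.575). The order of means from the highest was 2 h, 6 h, 12 h, 24 h, 0 h, naive and 3 h. The 12 h, 24 h, 0 h and naive means lay within 0.013 of each other on the log2 scale.

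Probe set M36074_g_at, named for the same sequence record, read 113.4, 106.4 and 57.5 in naive arrays. It read 92.1 and 97.1 at 0 h, 112.9 and 97.1 at 2 h, and 77.8 and 39.5 at 3 h. It read 116.1, 128.1 and 121.8 at 6 h, 90.4 and 93.1 at 12 h, and 115.8 and 60.4 at 24 h. Here the 6 h arrays, not the 2 h arrays, lay above all naive arrays. The 6 h difference was 0.46 (SE 0.30, limma adjusted p = 0.668) and the 2 h difference 0.24 (SE 0.34, limma adjusted p = 0.895). Both probe sets had their lowest mean at 3 h (differences from naive of -0.28, SE 0.24, and -0.67, SE 0.34), with overlapping arrays in each case. Pearson's r between the probe sets was 0.47 over the 16 arrays.

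**Figure D2:**
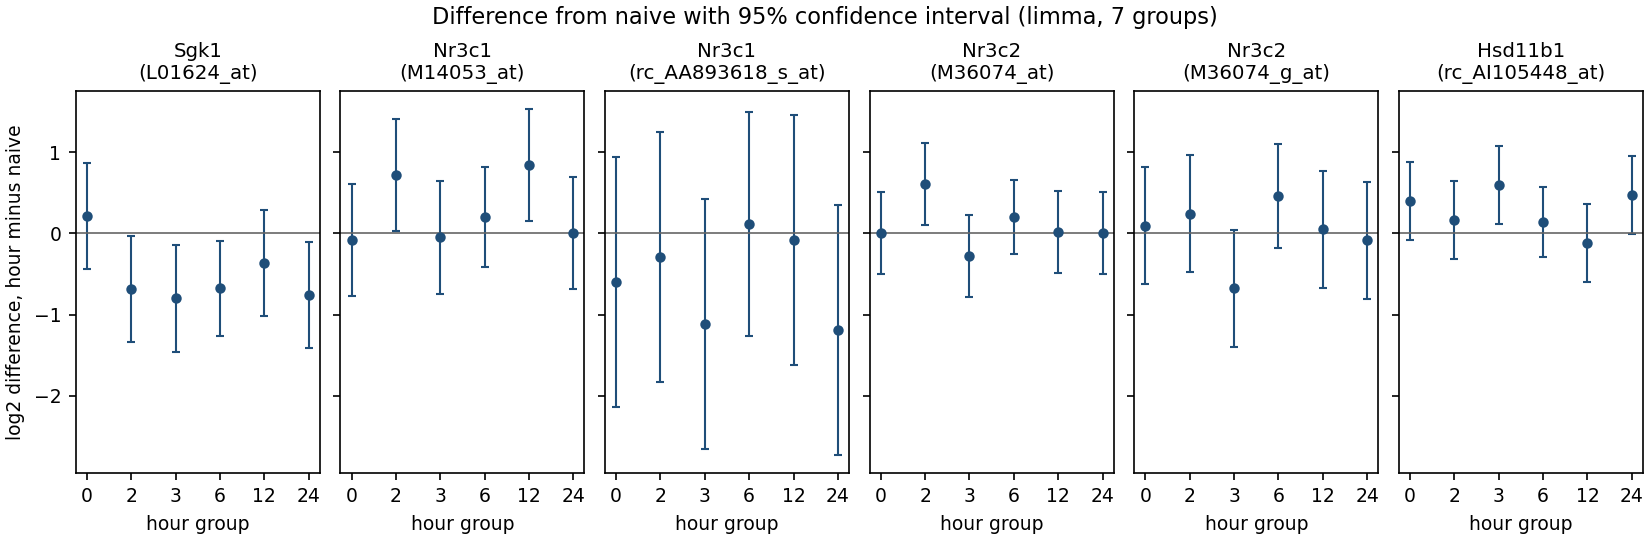
Log2 difference of each hour from naive for the 6 tested probe sets, with 95% confidence intervals from limma (2 or 3 arrays an hour, 3 naive arrays). Intervals do not include 0 for Sgk1 at 2, 3, 6 and 24 h, for Nr3c1 (M14053_at) at 2 and 12 h, for Nr3c2 (M36074_at) at 2 h and for Hsd11b1 at 3 h, before any adjustment over probe sets.

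Whether the 2 receptors moved unequally was measured within each array as log2 Nr3c2 (M36074_at) minus log2 Nr3c1 (M14053_at), which does not depend on the array's scale. Its size does not say which receptor is more abundant, since the probe sets differ. The naive arrays gave 2.51, 1.99 and 2.13. The 12 h arrays gave 1.61 and 1.14, the lowest group mean (1.38, SD 0.33, n = 2), below all naive arrays. At 2 h, where both probe sets were above the naive arrays, the values were 2.09 and 2.11, inside the naive range. The other trained arrays ran from 1.504 to 2.69. The trained mean was 2.04 (SD 0.43, n = 13) and the naive mean 2.21 (SD 0.27, n = 3), a difference of -0.17 with a two-sided exact permutation p = 0.561. Over the 7 groups the permutation test of the F statistic (1.51) gave p = 0.271 with 100000 permutations. Leaving out 6 h replicate 2 (1.504) raised that F to 4.48 (permutation p = 0.0233). With the mean over each receptor's tested probe sets in place of 1 probe set, the trained difference was 0.18 (permutation p = 0.571), so its direction was not settled.

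**Figure D3:**
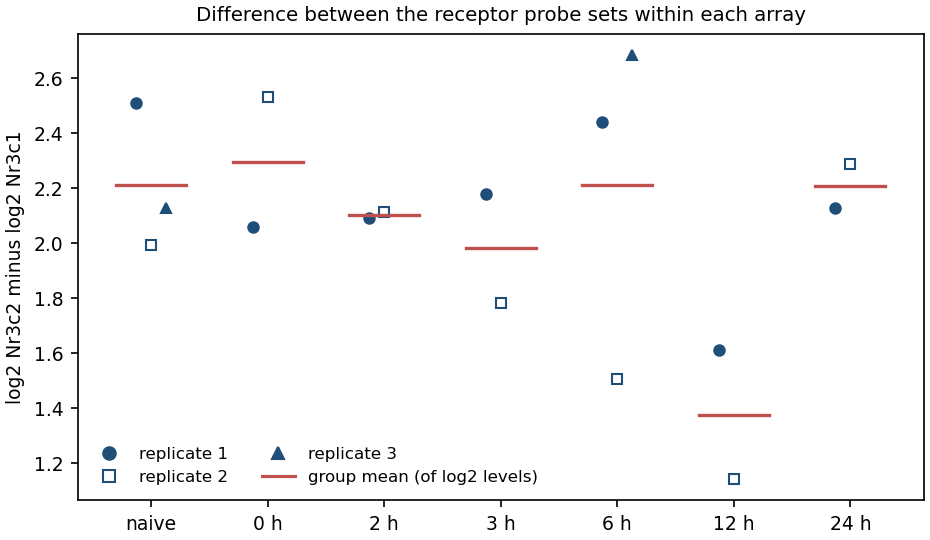
Log2 Nr3c2 (M36074_at) minus log2 Nr3c1 (M14053_at) within each of the 16 arrays, by group, with red lines at the group means. The 12 h arrays (1.61 and 1.14) lie below the 3 naive arrays (1.99 to 2.51).

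Hsd11b1, the enzyme that regenerates active corticosterone, was read by probe set rc_AI105448_at and was highest at 3 h and 24 h. Naive arrays read 567.6, 468.6 and 442.0. The hours read 618.2 and 677.6 at 0 h, 515.9 and 584.4 at 2 h, and 743.5 and 737.4 at 3 h. They read 544.9, 394.9 and 736.2 at 6 h, 447.0 and 454.7 at 12 h, and 672.4 and 686.5 at 24 h. All arrays at 0 h, 3 h and 24 h were above every naive array, whereas the 12 h arrays lay inside the naive range and the 6 h arrays on both sides of it. The 3 h mean was 1.51-fold above naive (log2 difference 0.60, SE 0.23, limma adjusted p = 0.998). The 24 h difference was 0.47 (SE 0.23, 95% confidence interval -0.007 to 0.95), that at 0 h was 0.40 (SE 0.23), and that at 12 h was -0.12 (SE 0.23). Over all trained groups the difference was 0.28 (SE 0.16, 95% confidence interval -0.06 to 0.61, limma adjusted p = 0.981). The order of means from the highest was 3 h, 24 h, 0 h, 2 h, 6 h, naive and 12 h, and no step between neighbours clearly exceeded the spread within groups (SD 0.24).

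Some marker scores of other cells also lay outside the naive range at 3 h or 24 h, and others overlapped with it. The choroid plexus and ependyma score (naive 0.11 to 1.61) was -0.77 to -0.71 at 3 h and -0.72 to -0.56 at 24 h. That score was also below the naive range at 2 h (-0.43 to -0.10) and 12 h (-0.50 to -0.43). The oligodendrocyte score was -0.73 to -0.60 at 24 h, against -0.04 to 0.40 in naive arrays. The endothelium and mural cell score was lowest at 24 h (-0.41 to -0.19, with 5 of 8 genes below the naive mean and a summed scaled intensity of 415 to 449) and was -0.06 to 0.02 at 3 h, inside the naive range. The dentate granule score, over Calb1 and Neurod1, was lowest at 3 h (-0.46 to -0.12, naive -0.18 to 0.13). The interneuron score (7 of 8 genes tested) was -0.26 to -0.06 at 3 h and -0.20 to 0.08 at 24 h, against -0.16 to 0.36 in naive arrays. Their part in the Hsd11b1 values was not tested. With the actin ratio as a covariate the 3 h difference was 0.62 (SE 0.24).

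Hsd11b2, the enzyme that inactivates corticosterone in classical mineralocorticoid target tissue, was read by U22424_at and was at the lowest level on 12 of 16 arrays. The remaining values were 8.1 (2 h replicate 1), 7.5 (6 h replicate 1), 5.7 (12 h replicate 1) and 5.9 (24 h replicate 1). No array exceeded the filter of 16.9, so it was not tested. Its naive arrays were all at the lowest level.

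The target gene Sgk1, read by L01624_at, was lower in most trained arrays than in naive arrays. Naive arrays read 111.5, 137.7 and 153.9. The 0 h arrays read 231.4 and 103.8, on opposite sides of the naive range. The 2 h arrays read 78.1 and 87.8, the 3 h arrays 85.9 and 68.0, and the 6 h arrays 95.01, 80.2 and 76.4. The 12 h arrays read 121.3 and 87.9, and the 24 h arrays 64.5 and 96.0. Of the 13 trained arrays, 12 were below the naive mean and 11 below every naive array, and the 2, 3, 6 and 24 h groups did not overlap with naive. As many or more trained arrays below every naive array were seen for 2.17% of all probe sets, and 4 or more such hours for 3.26%. Both shares count the lower direction only. That direction and the cut-offs follow the Sgk1 values, so these shares do not test Sgk1.

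The trained groups together were 1.43-fold below naive (log2 difference -0.51, SE 0.22, 95% confidence interval -0.97 to -0.05). The limma adjusted p was 0.922. By hour the differences were 0.22 (SE 0.31) at 0 h, -0.69 (SE 0.31) at 2 h, -0.80 (SE 0.31) at 3 h, -0.67 (SE 0.28) at 6 h, -0.37 (SE 0.31) at 12 h and -0.76 (SE 0.31) at 24 h. The limma adjusted p was 0.628 at 2 h, 0.998 at 3 h, 0.47 at 6 h and 1 at 24 h. The 0 h value rested on replicate 1: without that array it was -0.36, and without replicate 2 it was 0.80. The order of means from the highest was 0 h, naive, 12 h, 6 h, 2 h, 24 h and 3 h, and the last 4 differed from each other by less than the spread within groups (SD 0.36 on the log2 scale).

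The number of these 6 probe sets with no overlap between an hour's arrays and the naive arrays is given beside the share over all probe sets. It was 1 of 6 at 0 h (21.7% of all), 3 of 6 at 2 h (27%) and 3 of 6 at 3 h (19.3%). It was 2 of 6 at 6 h (10.9%), 1 of 6 at 12 h (27.7%) and 2 of 6 at 24 h (20.6%). With all 13 trained arrays as 1 group it was 0 of 6 (0.257%). Nr3c1 and Nr3c2 are each read by more than 1 of the 6, and every hour is set against the same naive arrays. With so few probe sets, no count is therefore read as above or below the share.

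Markers of other cell types also stood at other levels in trained than in naive arrays. The choroid plexus and ependyma list, of which 10 of 14 genes were tested, had a summed scaled intensity of 2549 to 5973 in naive arrays. It was 793 to 3538 at 0 h, 713 to 1235 at 2 h, 686 to 770 at 3 h, 2121 to 5088 at 6 h, 873 to 919 at 12 h and 599 to 657 at 24 h. Each hour had 8 or 9 of the 10 genes below the naive mean. With the level of Ttr (transthyretin, very abundant in choroid plexus) as a covariate, the Sgk1 difference was 0.13 (SE 0.30) over the trained groups, 0.06 (SE 0.38) at 2 h, 0.42 (SE 0.39) at 12 h and 0.26 (SE 0.45) at 24 h. These have the opposite sign to the values without the covariate, and all but that at 12 h are smaller than their SE. It was -0.004 (SE 0.39) at 3 h, and at 6 h it kept most of its size (-0.61, SE 0.24). Ttr and the groups move together, so the covariate also takes up what the 2 share.

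The oligodendrocyte list (9 of 14 genes tested) summed to 5037 to 6750 in naive arrays and to 3304 to 3582 at 24 h, where 9 of 9 genes were below the naive mean. That count was 8 of 9 at 2 h, and 9 of 9 at 3 h and at 6 h. It was 4 of 9 at 0 h and 5 of 9 at 12 h, the hours at which Sgk1 overlapped with naive. The sums, however, overlapped with the naive range at 2 h (4269 to 6139), 3 h (4739 to 5930) and 6 h (4350 to 6011), as they did at 0 h and 12 h. The astrocyte list (8 of 10 genes tested) summed to 7161 to 8426 in naive arrays and 6944 to 7454 at 24 h, with 6 of 8 genes below the naive mean there. At 2 h it summed to 8029 to 9670, with 3 of 8 genes below the naive mean. The sum was 7042 to 8313 at 3 h (5 of 8) and 7438 to 10024 at 6 h (4 of 8). It was 9094 to 9406 at 0 h and 8216 to 10408 at 12 h, with 4 of 8 genes below at each. The astrocyte score averaged 0.11 in naive arrays, 0.16 at 0 h, 0.19 at 2 h, -0.16 at 3 h and -0.08 at 6 h. Its mean was -0.02 at 12 h and -0.21 at 24 h. Pearson's r with the Sgk1 level over the 16 arrays was 0.71 for this score, as a description. For the choroid plexus and ependyma score r was 0.62, and for the oligodendrocyte score 0.51. The beta-actin control ratio (3′ probe set over 5′ probe set), a sign of RNA or label length, was 1.49 to 1.70 in naive arrays and above all of them in 12 of 13 trained arrays. With that ratio as a covariate the Sgk1 difference over the trained groups was -0.46 (SE 0.33). The part of the glial markers in the Sgk1 values was not tested.

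**Figure D4:**
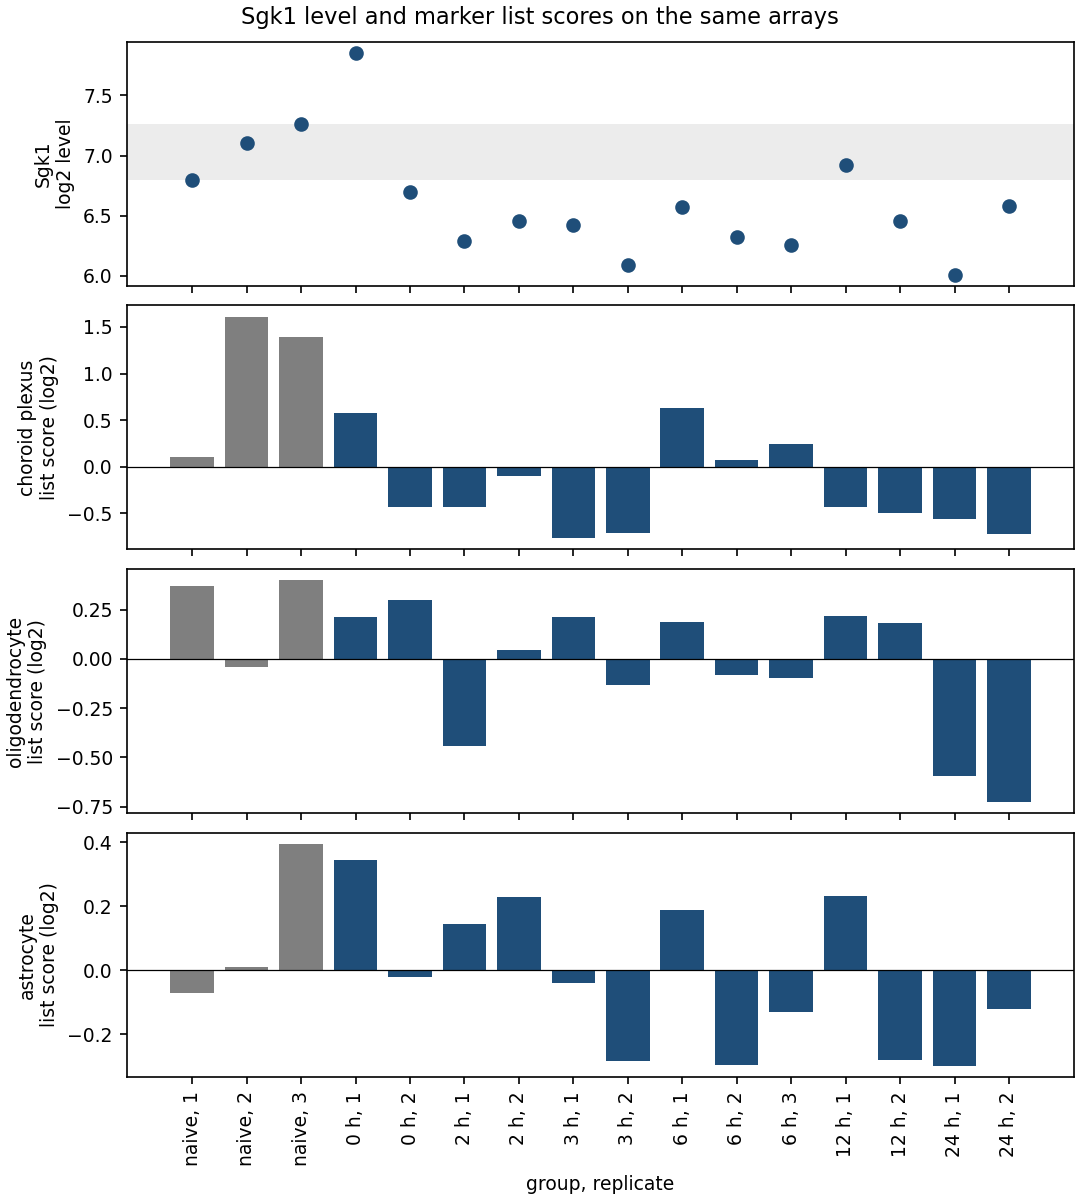
Sgk1 log2 level (top, grey band for the naive range) and marker list scores (mean over genes of the log2 level less that gene's mean over the arrays) on the same 16 arrays, naive bars in grey. The choroid plexus score is above 1 on 2 naive arrays, and the oligodendrocyte score is lowest on the 24 h arrays.

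The probe sets most like each tested one over the 16 arrays, by Pearson's r among 5123 or 5124 probe sets with another gene symbol, are given as a description. For Sgk1 they were Gpd1 (r = 0.83), Hipk3 (0.77) and Slc4a2 (0.77). Gpd1 encodes a cytosolic glycerol-3-phosphate dehydrogenase and is on the list of glucocorticoid-responsive genes, and Slc4a2, an anion exchanger, is on the choroid plexus list. Gpd1 read 20.5, 14.3 and 41.8 in naive arrays and 42.4 and 13.7 at 0 h, so its 0 h replicates stood apart as those of Sgk1 did. For Nr3c1 (M14053_at) they were Nup37 (0.89), Igf2 (0.88) and Chrng (0.86). Nup37, a nuclear pore protein, read 34.0 and 29.6 at 2 h and 36.0 and 33.8 at 12 h against 19.5, 28.6 and 21.1 in naive arrays. For rc_AA893618_s_at they were Gpr15lg (0.73), Csf3 (0.70) and Cfap299 (0.69).

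For Nr3c2 (M36074_at) they were Atp1b1 (0.86), Homer1 (0.82) and Itgb7 (0.81). Atp1b1 encodes the beta subunit of the sodium pump, which mineralocorticoids act on in kidney. This probe set of it read 1536 and 1621 at 2 h against 974.6, 812.4 and 1305.5 in naive arrays. At 12 h its mean log2 level was below naive (9.71 against 9.98). Another Atp1b1 probe set, rc_AI112173_at, was highest at 12 h (12.20, with 11.92 at 2 h and 11.52 in naive arrays). Homer1, a scaffold protein of excitatory synapses, read 39.2 and 31.6 at 2 h against 21.4, 12.5 and 18.7 in naive arrays. For M36074_g_at they were Itpr3 (0.91), Bicd2 (0.88) and Ncam1 (0.87), a different set. For Hsd11b1 they were Gsto1 (0.88), Gstm5 (0.82) and Slc25a14 (0.81), the first 2 of which encode glutathione transferases.

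The wider pathway was described with 7 lists, which together gave 0 genes past the adjusted threshold in any comparison. The receptor chaperones and co-chaperones, which hold the receptors ready for hormone (10 of 16 genes tested), had 7 of 10 genes below naive over the trained groups with a median difference of -0.13, against -0.01 over all probe sets. Their median was lowest at 6 h (-0.28, 8 of 10 below naive, against -0.03 for all). Hspa4, a heat shock protein, was at -0.55 at 2 h (SE 0.24, limma adjusted p = 0.628) and its second probe set at -0.73. Dnaja1, a co-chaperone, was at 0.40 at 0 h (SE 0.22, limma adjusted p = 0.997), and its second probe set at 0.78. At 6 h its probe sets had opposite signs, -0.28 (SE 0.20) and 0.78 (SE 0.34), and at 2 h they gave -0.07 and -0.71.

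Genes known to respond to glucocorticoids (12 of 30 tested) had 8 of 12 below naive over the trained groups and a median of -0.05, against -0.01 for all probe sets. By hour the median was 0.06 at 0 h, -0.01 at 2 h, -0.24 at 3 h, -0.11 at 6 h, -0.32 at 12 h and -0.11 at 24 h. Over the 6 trained times, 5 of the 12 had an unadjusted limma p under 0.05, where 10.8% of all probe sets did, and over the 7 groups 4 of 12, where 10.3% did. The 5 were Cdkn1a, Klf9, Glul, Cebpb and Errfi1, named after their values were seen. Their directions were mixed. Klf9, a transcription factor that glucocorticoids induce in neurons, read 575.4, 501.6 and 651.2 in naive arrays on D12769_g_at, 861.0 and 819.2 at 0 h, and 452.8 and 361.2 at 24 h. The differences were 0.55 (SE 0.24) at 0 h and -0.50 (SE 0.24) at 24 h (limma adjusted p = 0.972 and 1). Its second probe set differed, with -0.22 at 0 h and 0.79 at 2 h. Glul, the glutamine synthetase of astrocytes, was at 0.34 at 0 h, -0.35 at 2 h and 0.29 at 12 h (SE 0.18 each), with a limma F test adjusted p of 0.338 over the 7 groups. Its 3 other probe sets did not all share these signs: at 0 h they gave 0.19, -0.20 and -0.33, at 2 h -0.54, -0.07 and 0.03, and at 12 h 0.18, -0.80 and -0.34. Cdkn1a, a cell cycle inhibitor, was at 1.06 at 6 h (SE 0.42), and Errfi1, an inhibitor of growth factor receptors, at -0.73 at 24 h (SE 0.23).

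The list of Sgk1 and mineralocorticoid effectors (11 of 23 tested) includes channels, pumps and regulators that the kinase acts on. It also holds Pdpk1, a kinase upstream of Sgk1, and Pdk1, a pyruvate dehydrogenase kinase, so it is not made up of effectors alone. Its median was 0.29 at 2 h against 0.03 for all probe sets, and -0.19 at 24 h. At 2 h the median gene was Pdpk1 itself. Gsk3b, a kinase in the insulin pathway, read 28.6, 37.6 and 37.4 in naive arrays and 56.8, 95.9 and 48.4 at 6 h, so all 6 h arrays were above all naive arrays. Its differences were 0.67 (SE 0.31) at 2 h, 0.90 (SE 0.28) at 6 h and 0.78 (SE 0.31) at 12 h, with limma adjusted p of 0.636, 0.388 and 0.439, and its second probe set was at 0.80, 0.60 and 0.59. Nedd4, a ubiquitin ligase of the family that regulates sodium channels, was at 1.01 at 2 h (SE 0.51) and below naive at each other hour.

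Among the stress peptides and their receptors (8 of 15 tested), the median was 0.49 at 2 h against 0.03 for all probe sets, with 5 of 8 above naive. Of these 5, Crh, Oxt, Pomc and Adcyap1r1 had naive means of 11.4, 9.3, 12.7 and 19.2, below or near the low-value filter (16.9). Only Avp (39.2) was well above it, so the median rests largely on low readings. Oxt, the oxytocin precursor, read 8.3, 6.5 and 13.2 in naive arrays and 29.9 and 26.5 at 24 h (difference 1.66, SE 0.50, limma adjusted p = 0.583), all near the low end of the scale. Crhbp, which binds corticotropin-releasing hormone, was at 0.56 at 0 h and -0.60 at 3 h (SE 0.35 each), and its second probe set at 0.24 and -1.31 (SE 0.76 each).

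Of the steroid synthesis, conversion and transport genes (9 of 21 tested), 4 were above and 5 below naive over the trained groups. Abcb1a, an efflux pump of the blood-brain barrier, was at the lowest level on all naive arrays, so its fitted differences of 1.71 at 2 h and 1.14 at 6 h depend on that level. It read 18.6 and 14.7 at 2 h and 20.1, 9.7 and 7.1 at 6 h. Cyp21a1, a steroid hydroxylase, was at -0.93 at 24 h (SE 0.49).

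The other steroid and nuclear receptors (15 of 21 tested) had 10 of 15 above naive over the trained groups and a median of 0.32 at 12 h, where all probe sets had 0.06. Rara, a retinoic acid receptor, read 482.7, 309.9 and 538.8 in naive arrays, 766.0 and 584.9 at 0 h, and 295.0 and 257.6 at 2 h. Its differences were 0.63 (SE 0.25) at 0 h and -0.65 (SE 0.25) at 2 h, with limma adjusted p of 0.909 and 0.563, and its second probe set was at 1.33 at 2 h, the opposite direction. Nr2f6, an orphan receptor, was at -0.49 at 0 h (SE 0.24). Of the coactivators and corepressors, 4 of 15 were tested. Smarca4, a chromatin remodelling ATPase that the receptors recruit, read 65.7, 51.1 and 43.5 in naive arrays and 33.2 and 19.8 at 12 h (difference -1.04, SE 0.32, limma adjusted p = 0.333). Ywhah, an adaptor protein, was at 0.61 at 12 h (SE 0.31), and its second probe set at 0.43 (SE 0.23).

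**Figure D5:**
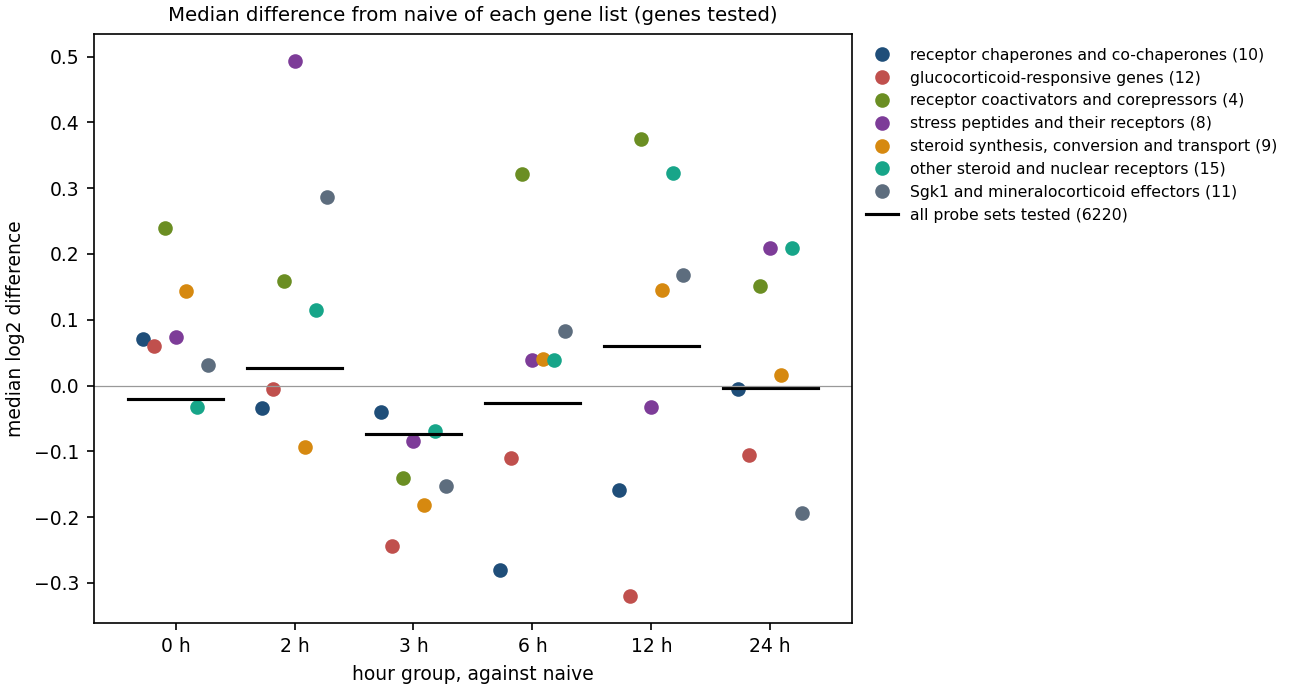
Median log2 difference from naive of the 7 gene lists at each hour (points, genes tested in brackets) and of all 6220 probe sets tested (black bars). The glucocorticoid-responsive list is lowest at 12 h (-0.32) and the stress peptide list highest at 2 h (0.49). Most stress peptide genes above naive at 2 h read below or near the low-value filter in naive arrays. No gene of any list passed the adjusted threshold.

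At 3 h these medians depended on the array scale. With each array centred on its median the chaperone median was 0.14, that of coactivators 0.04, that of the other nuclear receptors 0.12 and that of the Sgk1 effectors 0.03, in place of -0.04, -0.14, -0.07 and -0.15. With quantile normalization the median of coactivators at 2 h was -0.09 in place of 0.16. The directions of these lists at those hours are therefore not settled by the data.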

How the data were processed

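Intensity values, 1 per probe set and array, were used as deposited by the authors. How they were summarised, background-corrected and scaled is not given in the sources used here. All 16 columns were used. Here arrays were brought to equal 2% trimmed means over 8740 probe sets (59 controls left out), raised to at least the pooled 20th percentile and put on the log2 scale. The 6220 probe sets above the pooled 40th percentile on at least 2 arrays entered lmFit and eBayes (variance trend, 7 groups; limma 3.58.1, R 4.3.3), checked on simulated data, with Benjamini-Hochberg adjustment at 0.05. Symbols came from the platform annotation, updated by gene identifier (7006 probe sets with 1 symbol, 308 with several, 1426 unnamed). A list's gene was represented by its probe set with the highest mean. Unless stated otherwise, the named list genes are the 2 of each list with the smallest p over the 7 groups; likeness names the 3 highest r. Sequences are RefSeq's, GRCr8; 2 of 5 measured genes matched. The genes, lists and tests were chosen with earlier results of these data known. Alternatives changed the scaling, lowest level, filter, variance model, array weights, groups fitted, replicate block and covariates (Ttr level, beta-actin ratio), or left out 1 array.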

Additional observations from a re-analysis of the deposited data

How the results depend on the processing

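None of the tested probe sets passed the adjusted threshold in any of 250 recomputed counts, and the lowest limma adjusted p of any of them was 0.254. Of the 30 settings, those that only averaged over probe sets gave no such count. Changes of sign were counted only where the difference as reported was larger than its SE. The 1482 recomputed values also hold F tests, which have no sign, and differences below their SE. They are therefore not the number of values in which a change could be counted. Opposite signs were found in 5 values, all when Ttr was the covariate. These were rc_AA893618_s_at of Nr3c1 over the trained groups (0.078), and Sgk1 over the trained groups (0.13), at 2 h (0.062), 12 h (0.42) and 24 h (0.26). All but that at 12 h are smaller than their own SE, so these directions are not settled. The receptor difference between trained and naive arrays was 0.18 with the mean over probe sets. It ranged from -0.28 to -0.02 when 1 array was left out, and its F over the 7 groups from 0.50 to 4.48, the highest without 6 h replicate 2. Counts over all probe sets reached 29 (at 6 h without 6 h replicate 3), 27 (at 12 h with no filter on low values) and 17 (trained without naive replicate 1), each from 0. Leaving out 1 of 2 arrays assumes that the other varies like the remaining groups. Of 245 list medians, 17 moved. Same-numbered arrays of different groups deviated together only weakly (12 of 43 pairs with r above 0.1). The median r was 0.02, against -0.02 for pairs with other numbers. Still, 12 of 16 arrays correlated best with their own number, so a small shared deviation is not excluded. The numbers were not taken as pairs in the main fit. With the replicate block the receptor difference had a permutation p = 0.571 and its F a permutation p = 0.254, Sgk1 over the trained groups was -0.49, the 1 probe set called over the whole array at 2 h became 0, and none of the 6 was called. The number of arrays, 2 or 3 a group, limits the precision, and Hsd11b2 and rc_AI137538_at are too close to the lowest level to compare.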
